A study of Homo sapiens with 6 samples.

Results

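The genes described here are 50 genes of the G2 phase and mitosis, chosen by name from the 58174 genes of the expression table. They were measured by RNA sequencing of total RNA in PC9, a human lung adenocarcinoma cell line. The knockdown group held 3 libraries of cells given an antagomir, an antisense oligonucleotide, that targeted tsRNA-5001a, a small RNA of the class derived from transfer RNA. The control group held 3 libraries of the same line given a negative-control antagomir. The level of tsRNA-5001a itself was not analysed here, so the knockdown was not checked. No label states that replicate libraries were separate cultures. The p-values therefore reflect only how far these libraries scatter, and that scatter may be technical. In bulk RNA, fewer cells in G2 and mitosis and less of each mRNA per cell cannot be told apart.

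Cells prepare for division in G2, when cyclin B accumulates and binds the kinase CDK1, and CDC25 phosphatases then switch the complex on. Aurora and Polo-like kinases and the kinesin motors build the spindle, and the spindle checkpoint holds sister chromatids together until every kinetochore is attached. CDC20 and the conjugating enzyme UBE2C then drive the anaphase-promoting complex to mark cyclin B and securin for destruction. Most of these genes are transcribed together late in the cycle, under the DREAM and MuvB complexes, B-MYB (MYBL2) and FOXM1, through a promoter element called the cell cycle genes homology region (CHR) and through CCAAT boxes.

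All 50 genes passed the filter on low counts and were tested with 19040 genes in all by edgeR's quasi-likelihood test. None rose or fell at a Benjamini-Hochberg adjusted p under 0.05. Of all tested genes 1.17% passed that threshold, 1.1% higher (209 genes) and 0.0735% lower (14 genes). The lowest adjusted p among the 50 by edgeR was 0.118, for UBE2C. Their log2 fold changes, knockdown over control, ran from -0.48 to 0.31 with a median of -0.12, and the median over all tested genes was 0.05. The sign of their median depended on the scaling and on the measure. It was 0.01 with library sizes alone and 0.05 on log2(TPM + 1), where the medians over all tested genes were 0.17 and 0.21. The fold change was below 0 for 33 of the 50 genes (66%) and for 44.1% of all tested genes. At an unadjusted edgeR p under 0.05, 9 of the 50 genes were lower and 0 were higher, where 6.71% of all tested genes were lower and 9.77% higher. In place of 9, the count of lower genes was 2 with library sizes alone, 1 on log2(TPM + 1), 4 with cyclic loess, 17 with GC and length trends removed, and 16 without knockdown library 2 or 5 without control library 2. The shares of all tested genes at that threshold were not computed under these settings, so these counts stand without a background. DESeq2's test called 1 gene, UBE2C, which fell by 0.51 on the log2 scale (adjusted p = 0.0332), where 3.69% of all genes with an adjusted p were called and 1.15% were called lower. With each library's trend on transcript GC content and length removed, an alternative added after the data were seen, UBE2C, KIF2C and CDC20 fell by edgeR, where 3.42% of all tested genes were called and 1.11% were called lower.

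A second description set the libraries side by side without a model. In CPM (a gene's count relative to the library's total after TMM scaling), every knockdown library lay below every control library for 14 of the 50 genes (28%), and 10.8% of all tested genes had that pattern. The opposite pattern was found for 0 of the 50 genes and for 13.4% of all tested genes, and the groups overlapped for the other 36 genes. The pattern depended on the scaling and on the measure, with comparisons chosen after the data were seen. With library sizes alone it was left for 8 of the 50 genes (16%; 5.54% of all tested genes lower, 20.3% higher). In TPM it was left for 3 (6%; 2.95% lower, 27% higher), UBE2C, CDC20 and CDCA3, and the opposite pattern was found for 0 of the 50 in either. The overlap of groups in the rest of the text is that of TMM-scaled CPM. The 14 genes were UBE2C, CDC20, AURKB, CDCA3, CDC25B, KIF2C, MYBL2, KIF4A, PRC1, AURKA, GTSE1, CDCA8, FOXM1 and KIF20A, with log2 fold changes between -0.48 and -0.18.

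**Figure D1:**
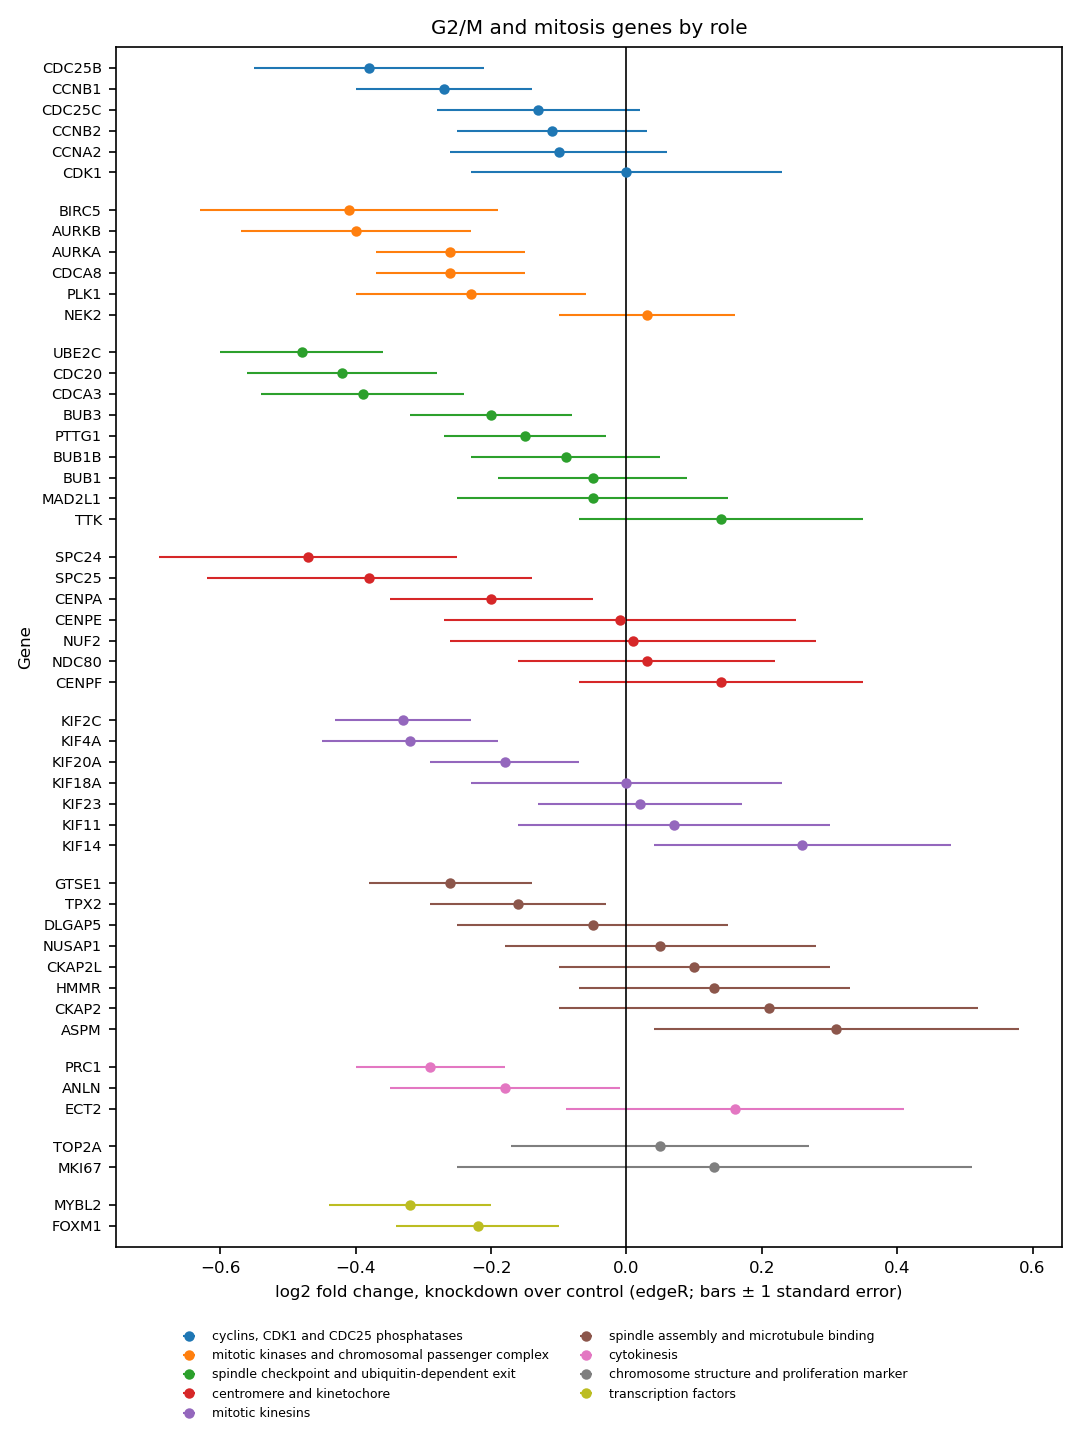
Log2 fold change of each of the 50 genes, knockdown over control, on the horizontal axis, with bars of 1 standard error from edgeR and genes in blocks by role. The values run from -0.48 for UBE2C to 0.31 for ASPM, and 33 of the 50 lie below 0.

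Promoter sequences are shown because most of these genes are transcribed together, and the shared elements can be seen in the letters. RefSeq windows (build GRCh38.p14) of 300 bases, 250 before to 50 after the annotated start, were matched by symbol for 43 of the 50 genes. Only the first listed window of each gene was used. Its start can lie far from the start of the gene, as for NUF2 (window from 163321704, gene from 163266576). AURKA, BIRC5, BUB3, TTK, UBE2C, TPX2 and FOXM1 were not matched. The windows were searched on both strands for 3 elements. The core letters of the CHR were taken as TTTGAA, with TTTAAA as a second form. The CCAAT box was searched by its own letters. The letters of an E2F site were TTCGCGC, with TTGGCGC as a second form. The second CHR form reads the same on both strands. E2F letters on the other strand can overlap a CCAAT box. The 250 bases before the start are printed for CDC20 (chr1:43358731-43358980, plus strand) and KIF4A (chrX:70289854-70290103, plus strand), whose groups did not overlap, and for CDK1 (chr10:60778081-60778330, plus strand) and KIF11 (chr10:92592880-92593129, plus strand), whose groups did. Each runs 5′ to 3′, and capitals mark the CHR core and CCAAT matches.
CDC20: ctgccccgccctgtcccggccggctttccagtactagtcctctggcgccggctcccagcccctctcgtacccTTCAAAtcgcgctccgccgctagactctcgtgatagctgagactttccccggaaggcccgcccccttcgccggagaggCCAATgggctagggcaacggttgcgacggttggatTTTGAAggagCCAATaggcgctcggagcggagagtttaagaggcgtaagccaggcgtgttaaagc
KIF4A: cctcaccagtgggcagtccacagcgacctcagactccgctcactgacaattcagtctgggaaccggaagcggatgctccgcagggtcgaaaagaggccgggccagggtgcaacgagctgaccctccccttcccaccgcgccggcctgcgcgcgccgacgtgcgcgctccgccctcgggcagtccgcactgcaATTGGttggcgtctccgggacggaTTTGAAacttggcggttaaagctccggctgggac
CDK1: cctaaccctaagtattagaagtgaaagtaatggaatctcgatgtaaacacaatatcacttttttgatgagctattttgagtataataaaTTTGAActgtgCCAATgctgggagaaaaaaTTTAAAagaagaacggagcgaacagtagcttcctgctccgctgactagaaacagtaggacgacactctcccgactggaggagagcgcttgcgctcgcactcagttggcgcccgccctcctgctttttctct
KIF11: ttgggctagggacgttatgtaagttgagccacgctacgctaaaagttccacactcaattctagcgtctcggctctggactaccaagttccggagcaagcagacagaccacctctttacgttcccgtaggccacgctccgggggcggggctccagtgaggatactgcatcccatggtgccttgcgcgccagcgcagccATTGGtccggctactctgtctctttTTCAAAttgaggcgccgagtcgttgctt

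The CHR core letters stood in 34 of 43 windows (79.1%), and in 16% of the windows of tested genes (1828 of 11447). CCAAT stood in 33 of 43 (76.7%), and in 35.9% of the windows of tested genes. Both elements were present in 28 of 43 windows (65.1%), against 6.36%. E2F letters were found in 6 of 43 (14%), against 8.11%. In the sequences printed above, KIF4A has a CCAAT box on the other strand at bases -58 to -54, counted back from the start, and a CHR core at -34 to -29. KIF11 has a CCAAT box at -53 to -49 and a CHR core at -28 to -23, both on the other strand. CDC20 has a CHR core on each strand and 2 CCAAT boxes, and CDK1 has CHR cores at -161 to -156 and -131 to -126 with a CCAAT box at -150 to -146. The share with the CHR core was 72.7% (8 of 11) among genes whose groups did not overlap, and 81.2% (26 of 32) among those whose groups overlapped. CCAAT stood in 72.7% (8 of 11) and 78.1% (25 of 32) of the same windows, and E2F letters in 0 of 11 and 18.8% (6 of 32). The difference between these shares was not tested, and a match describes the letters, not a bound site.

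The engine of mitotic entry is CDK1 with cyclins A and B, and the CDC25 phosphatases that activate it. All 6 of these genes had a log2 fold change at or below 0 (median -0.12, from -0.38 to 0.00), and none passed the test. CCNB1, which encodes cyclin B1, had 141, 182 and 151 CPM in the knockdown libraries, against 178, 201 and 194 CPM in the control libraries. Knockdown library 2 lay above control library 1, so the groups overlapped, and the log2 fold change was -0.27 ± 0.13 (standard error, SE, edgeR adjusted p = 0.341). CDC25B, the phosphatase that starts CDK1 activation at the centrosome, had 93.2, 80.7 and 94.7 CPM after knockdown, against 103, 146 and 101 CPM in controls. Its groups did not overlap, but control library 2 stood well above the others, and the log2 fold change of -0.38 had a standard error of 0.17 (edgeR adjusted p = 0.311) and was -0.18 without that library.

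CDK1 itself, described after its values were seen, averaged 109 ± 35.5 CPM in knockdown and 109 ± 18 CPM in control libraries (SD, n = 3 each). Its 3 knockdown libraries had 77, 147 and 103 CPM, against 99, 130 and 98.2 CPM in the controls. The knockdown values spanned the whole range of the controls and beyond at both ends. The 95% interval of its log2 fold change of 0.00 ran from -0.53 to 0.53, so a difference of that size in either direction was not resolved. Cyclin A2 (CCNA2, -0.10), cyclin B2 (CCNB2, -0.11) and CDC25C (-0.13) had smaller differences than CCNB1 and overlapping groups.

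Of the mitotic kinases and the chromosomal passenger complex, which corrects faulty attachments and guides cytokinesis, 5 of 6 genes had a log2 fold change below 0 and the median was -0.26. Aurora B (AURKB), the kinase of the passenger complex, had 39.4, 33.1 and 40.5 CPM after knockdown, against 45.9, 60.8 and 42.9 CPM in controls. The highest knockdown library lay only just under the lowest control, and the log2 fold change was -0.40 ± 0.17 (SE, edgeR adjusted p = 0.284), or -0.24 without control library 2, the highest. Aurora A (AURKA), which matures the centrosomes and activates PLK1, had 84.5, 87.5 and 88.4 CPM after knockdown, against 99.6, 108 and 105 CPM in controls. These groups did not overlap, and the log2 fold change was -0.26 ± 0.11 (SE, edgeR adjusted p = 0.28). AURKA had no such gap in TPM, where it averaged 80.7 ± 4.68 after knockdown and 81 ± 4.11 in controls (SD, n = 3 each), and the log2 fold change was -0.01 on log2(TPM + 1) and -0.14 with library sizes alone.

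The other passenger subunits had values on the same side. Borealin (CDCA8) stood at -0.26 with groups that did not overlap, and survivin (BIRC5), which anchors the complex at the centromere, at -0.41 with groups that did. BIRC5, described after its values were seen, had 30.4, 24.4 and 26.8 CPM after knockdown, against 49.5, 27.9 and 31.2 CPM in controls, where control library 1 stood apart from the others. PLK1, the Polo-like kinase of mitotic entry and exit, had a log2 fold change of -0.23, and NEK2, which separates the centrosomes, one of 0.03.

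The spindle checkpoint and ubiquitin-dependent exit held the gene with the lowest p of all 50. UBE2C (ENSG00000175063, chromosome 20, 45812576 to 45816957, plus strand, GRCh38) supplies ubiquitin to the anaphase-promoting complex. It had 148, 132 and 148 CPM in the knockdown libraries, against 196, 219 and 185 CPM in the control libraries. Every knockdown library lay well below every control, and the means were 143 ± 9.62 CPM after knockdown and 200 ± 17.5 CPM in controls (SD, n = 3 each). The log2 fold change was -0.48 ± 0.12 (SE), with a 95% interval from -0.76 to -0.21 and an edgeR adjusted p of 0.118, a level 28.5% lower after knockdown. CDC20 (ENSG00000117399, chromosome 1, 43358955 to 43363203, plus strand), the activator that brings the complex its substrates, had 224, 166 and 214 CPM after knockdown, against 253, 277 and 282 CPM in controls. The groups did not overlap, knockdown library 2 was the lowest of all 6, and the log2 fold change was -0.42 ± 0.14 (SE, edgeR adjusted p = 0.198).

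Of the 9 genes of this role, 8 had a log2 fold change below 0 and the median was -0.15. CDCA3, an adaptor that targets WEE1 for degradation, stood at -0.39 with groups that did not overlap. Of the checkpoint genes proper, BUB3 (-0.20), BUB1B (-0.09), BUB1 (-0.05) and MAD2L1 (-0.05), which bind unattached kinetochores or hold CDC20 inactive, lay between -0.20 and -0.05. The checkpoint kinase TTK was at 0.14, and securin (PTTG1), the inhibitor of separase, at -0.15. In all 6 of these genes the groups overlapped.

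**Figure D2:**
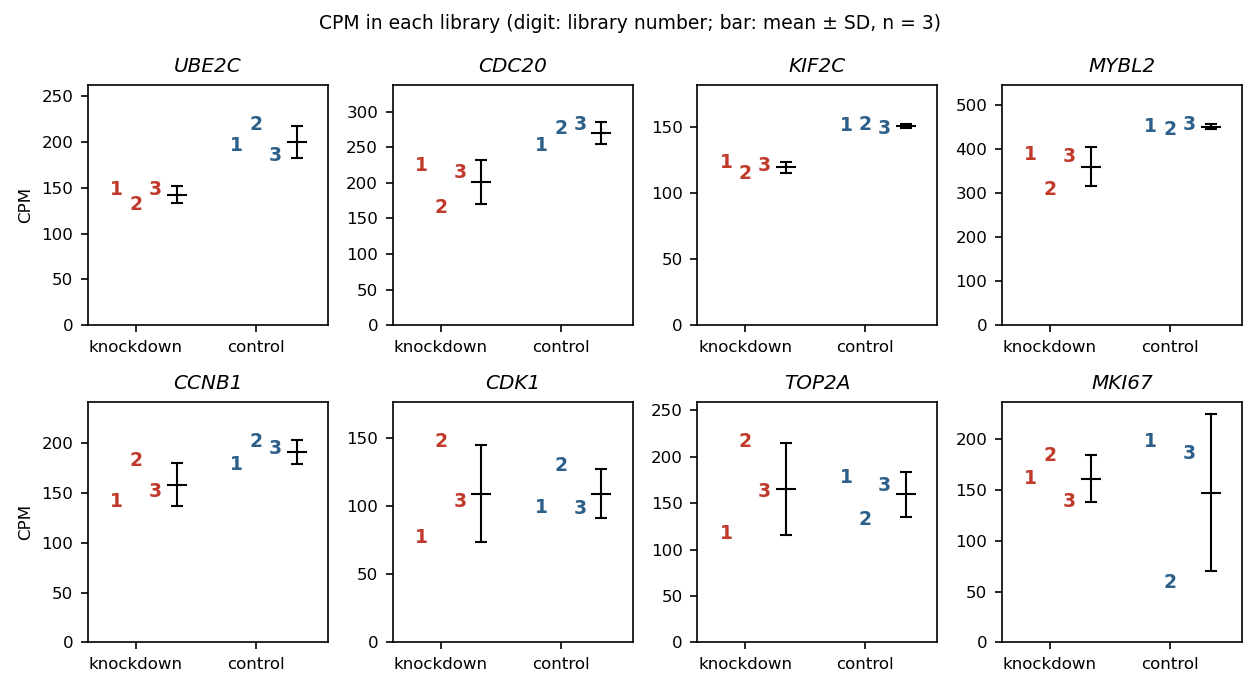
CPM of 8 of the genes in each library, with knockdown left of control, digits for the library number, and bars for mean ± SD (n = 3). The UBE2C, CDC20, KIF2C and MYBL2 groups do not overlap, while in CDK1 and TOP2A knockdown libraries 1 and 2 lie at opposite ends of the knockdown range.

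Centromere and kinetochore genes, which attach chromosomes to microtubules, had a median of -0.01 over 7 genes, and none had groups that did not overlap. SPC24 and SPC25 form the inner end of the NDC80 complex, and both had log2 fold changes below 0. SPC24 had 12.7, 8.8 and 10.9 CPM after knockdown, against 14.7, 18.9 and 11.4 CPM in controls, a log2 fold change of -0.47 ± 0.22 (SE, edgeR adjusted p = 0.33), or -0.28 without control library 2. SPC25 had 5.89, 8.27 and 4.74 CPM after knockdown, against 6.87, 9.61 and 8.06 CPM in controls, or -0.38 ± 0.24 (SE, edgeR adjusted p = 0.474). The SPC25 value was -0.63 without knockdown library 2, -0.21 without knockdown library 3 and -0.25 without control library 2. Both were low in abundance and their groups overlapped. The outer partners of the same complex, NDC80 (0.03) and NUF2 (0.01), lay near 0. CENPA, the histone variant that marks centromeres, had 20.3, 18 and 18.6 CPM after knockdown, against 19, 23.4 and 23.1 CPM in controls, or -0.20 ± 0.15 (SE, edgeR adjusted p = 0.532). CENPE, a kinesin of the kinetochore, stood at -0.01 and CENPF, a large protein of its outer corona, at 0.14.

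The mitotic kinesins split by gene. KIF2C (MCAK, ENSG00000142945, chromosome 1, 44739818 to 44767767, plus strand), which removes microtubules from wrong attachments, had 123, 115 and 121 CPM after knockdown, against 151, 152 and 149 CPM in controls. In CPM the spread within each group was far smaller than the gap. The means were 120 ± 4.02 CPM after knockdown and 151 ± 1.53 CPM in controls (SD, n = 3 each). The log2 fold change was -0.33 ± 0.10 (SE, edgeR adjusted p = 0.188). In TPM the KIF2C groups overlapped, at 80.8 ± 3.75 after knockdown and 84.7 ± 6.23 in controls (SD, n = 3 each). The difference was -0.07 on log2(TPM + 1). With library sizes alone it was -0.21, and there the groups still did not overlap. KIF4A, a chromokinesin of the central spindle, had 49.6, 60.1 and 48.3 CPM after knockdown, against 65.1, 62.1 and 69.6 CPM in controls. Knockdown library 2 was close to the lowest control, and the log2 fold change was -0.32 ± 0.13 (SE, edgeR adjusted p = 0.289). KIF20A, a kinesin that carries the passenger complex to the midzone, stood at -0.18 with groups that did not overlap.

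The other kinesins were near or above 0. KIF11 (Eg5), the motor that pushes the spindle poles apart and a gene described after its values were seen, had 36.4, 73.8 and 57 CPM after knockdown, against 53.2, 50.3 and 55.8 CPM in controls. The knockdown libraries lay both below and above the controls, with a log2 fold change of 0.07. KIF18A (0.00), KIF23 (0.02) and KIF14 (0.26), which align chromosomes or act at the midbody, had overlapping groups.

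Genes of spindle assembly and microtubule binding had a median of 0.07, the highest of the roles with 3 or more genes, and 5 of 8 lay above 0. TPX2, which activates Aurora A on the spindle, had 139, 175 and 141 CPM after knockdown, against 166, 168 and 174 CPM in controls, a log2 fold change of -0.16 ± 0.13 (SE, edgeR adjusted p = 0.571), or -0.28 without knockdown library 2. GTSE1, a microtubule-binding regulator of p53, had 45.3, 42.6 and 40.7 CPM after knockdown, against 53.6, 49.1 and 51.3 CPM in controls, or -0.26 ± 0.12 (SE, edgeR adjusted p = 0.323). GTSE1 was the only gene of the 8 whose groups did not overlap. At the other end were ASPM (0.31), a spindle pole protein, and CKAP2 (0.21), which stabilises spindle microtubules. Its relative CKAP2L (0.10), the TPX2-binding HMMR (0.13), the microtubule bundler NUSAP1 (0.05) and DLGAP5 (-0.05), which stabilises kinetochore fibres, lay closer to 0.

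Cytokinesis was represented by 3 genes. PRC1, which bundles the microtubules of the midzone, had 114, 126 and 118 CPM after knockdown, against 139, 151 and 148 CPM in controls, a log2 fold change of -0.29 ± 0.11 (SE, edgeR adjusted p = 0.247). ANLN, anillin of the contractile ring, had 94.5, 133 and 125 CPM after knockdown, against 156, 114 and 129 CPM in controls, or -0.18 ± 0.17 (SE, edgeR adjusted p = 0.636). The ANLN groups overlapped widely, and leaving out 1 library at a time gave values from -0.30 to -0.05. ECT2, the exchange factor that activates RhoA at the midzone, stood at 0.16.

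TOP2A, which disentangles sister chromatids, and MKI67, the Ki-67 proliferation marker that coats mitotic chromosomes, had log2 fold changes above 0. TOP2A had 117, 216 and 163 CPM after knockdown, against 178, 132 and 169 CPM in controls, so that the knockdown libraries lay on both sides of the controls (log2 fold change 0.05 ± 0.22, SE, edgeR adjusted p = 0.927). MKI67 had 161, 184 and 138 CPM after knockdown, against 197, 58.4 and 186 CPM in controls. Control library 2 stood far below every other library, and the log2 fold change of 0.13 had a standard error of 0.38 (edgeR adjusted p = 0.898). Without control library 2 it was -0.26.

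MYBL2 and FOXM1 encode transcription factors that switch on many of the other genes. MYBL2 (ENSG00000101057, chromosome 20, 43667019 to 43716496, plus strand) had 388, 309 and 383 CPM after knockdown, against 452, 445 and 456 CPM in controls. In CPM the controls were tight, and every knockdown library lay below them. The log2 fold change was -0.32 ± 0.12 (SE, edgeR adjusted p = 0.242). In TPM the MYBL2 groups overlapped, at 257, 224 and 267 after knockdown, against 284, 244 and 276 in controls. The difference was -0.10 on log2(TPM + 1). With library sizes alone it was -0.20, and there the groups still did not overlap. FOXM1 had 83, 74.3 and 83.7 CPM after knockdown, against 95.2, 84.7 and 99.8 CPM in controls. The knockdown values ended just below the lowest control, and the log2 fold change was -0.22 ± 0.12 (SE, edgeR adjusted p = 0.419).

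Across the 50 genes the knockdown libraries differed from each other more than the controls did. The mean deviation of log2 CPM from each gene's mean over the 6 libraries was -0.24, 0.10 and -0.05 in knockdown libraries 1, 2 and 3, against 0.09, 0.04 and 0.06 in control libraries 1, 2 and 3. Over all tested genes the same means were 0.04, 0.06 and 0.07 after knockdown, against -0.05, -0.06 and -0.07 in controls. Knockdown library 2 was the highest of its group for 32 of the 50 genes (64%), against 40.2% of all tested genes, and library 1 the lowest for 31 (62%), against 36.1%. The controls had no such order, with library 2 the highest for 20 genes and the lowest for 20. Without knockdown library 1, 29 of the 50 genes had a log2 fold change below 0, with a median of -0.10 against 0.02 over all tested genes. Without knockdown library 2 these were 45 genes, and -0.24 against 0.01. The share of all tested genes below 0 was not computed without either library. None of the 50 passed the edgeR test in either case. Without knockdown library 2, CCNB1 had the lowest adjusted p by edgeR, 0.145, with a log2 fold change of -0.40.

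**Figure D3:**
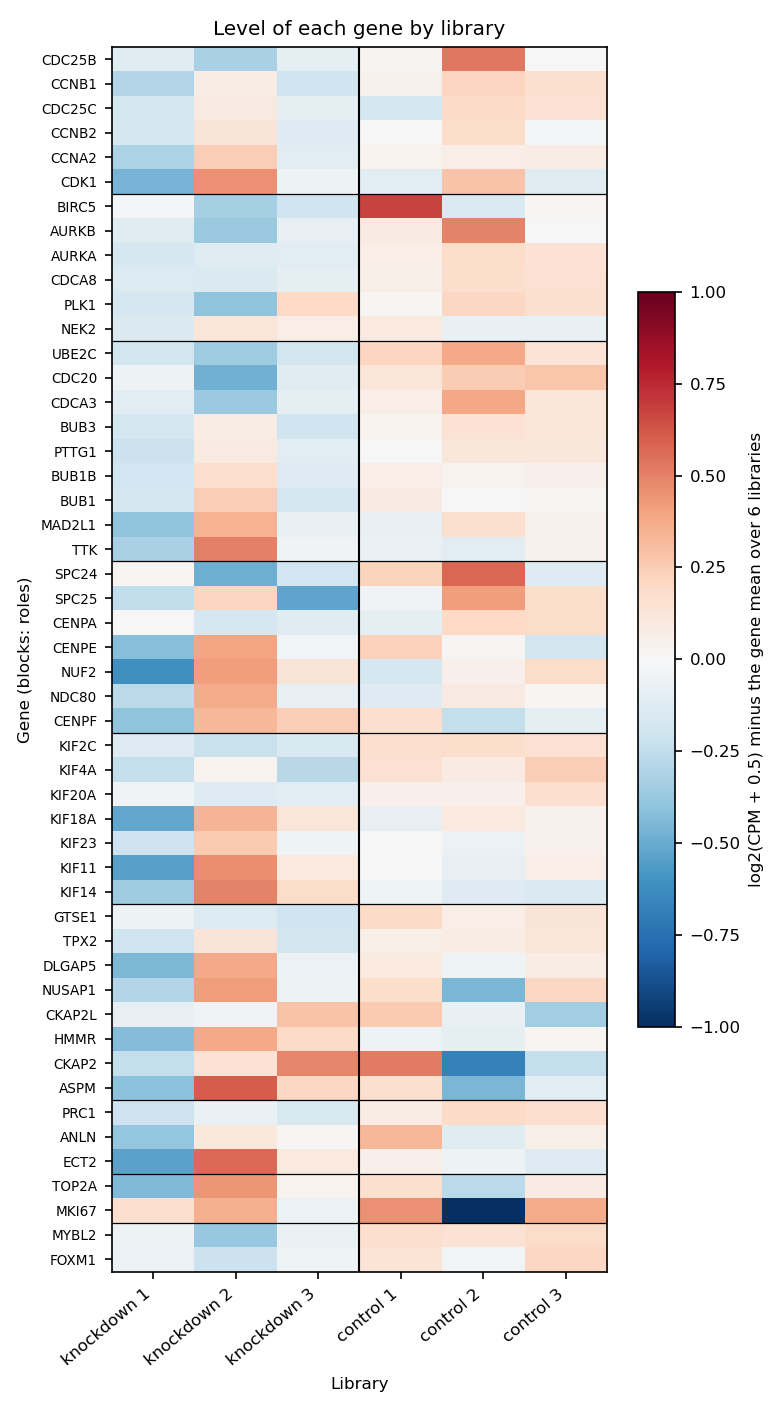
Deviation of log2(CPM + 0.5) from each gene's mean over the 6 libraries, with genes in rows by role and libraries in columns, knockdown left of control. Knockdown library 1 is the lowest of its group for 31 of the 50 genes and knockdown library 2 the highest for 32.

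Transcript GC content and length went with this order. The 14 genes whose groups did not overlap had transcripts with a median GC content of 52.8% (46.4 to 60.5%) and a median length of 2858 bases, against 40.8% (35.3 to 57.3%) and 3572 bases for the other 36. The 18978 tested genes with a known transcript were divided by GC content, at 45.2% and 54.6%, into 3 classes of 6326 genes, which held 28 (lowest GC), 16 (middle) and 6 (highest) of the 50 genes. In the lowest GC class the median log2 fold change of the mitotic genes was 0.01, and 0 had groups that did not overlap. In the middle class these were -0.26 and 9 genes, and in the highest class -0.35 and 5 genes. Over all genes of the same classes the medians were 0.13, 0.03 and -0.03, and every knockdown library lay below every control library for 4.95%, 14.1% and 13.5%. Among the 28 genes of the lowest GC class, the median deviation was -0.35, 0.35 and -0.03 in knockdown libraries 1, 2 and 3, against 0.04, -0.05 and 0.04 in the controls. All tested genes of that class had -0.15, 0.33 and 0.01 in the same knockdown libraries.

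The 16 genes of the middle class did not split in this way, at -0.13 in each knockdown library, against 0.07, 0.18 and 0.15 in controls, while all tested genes of that class lay between 0.00 and 0.03. In the highest GC class the values were -0.09, -0.38 and -0.08 after knockdown, against 0.11, 0.23 and 0.17 in controls. Length gave a like order, with medians of -0.38, -0.13 and 0.06 in the shortest, middle and longest classes (7, 29 and 14 genes), against -0.04, 0.03 and 0.11 over all tested genes. With the GC and length trends removed, 41 of the 50 genes lay below 0, and the median was -0.16 against 0.03 over all tested genes. The 3 genes that then fell by edgeR were UBE2C (-0.45, adjusted p = 0.0286), KIF2C (-0.34, adjusted p = 0.0404) and CDC20 (-0.38, adjusted p = 0.0453). What set knockdown libraries 1 and 2 apart was not tested.

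**Figure D4:**
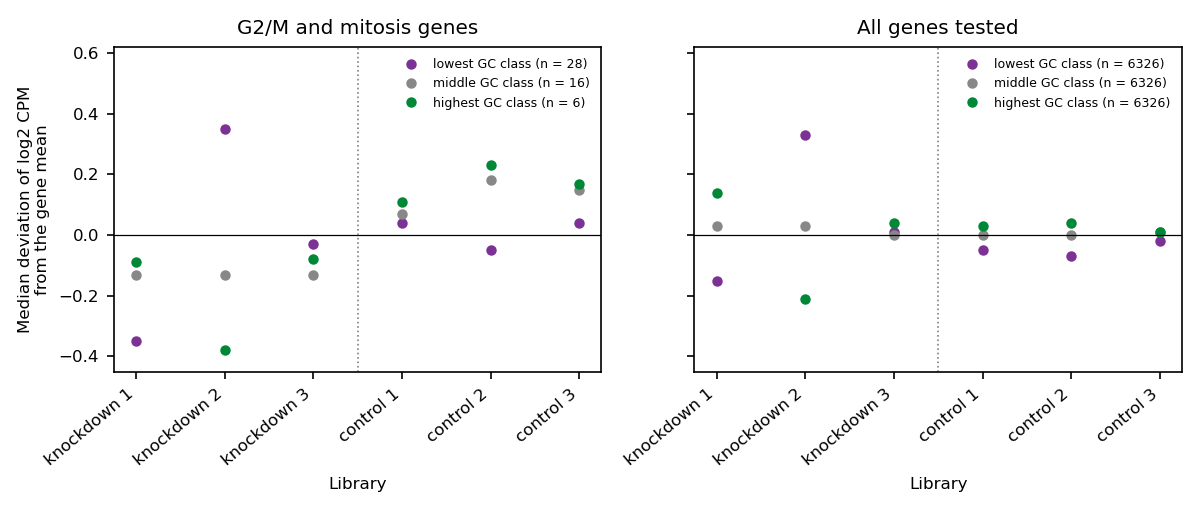
Median deviation of log2 CPM from the gene mean in each library, for the 50 genes on the left and all tested genes on the right, in 3 classes of transcript GC content. The lowest GC class lies at -0.35 in knockdown library 1 and 0.35 in knockdown library 2 among the 50 genes, and at -0.15 and 0.33 among all tested genes.

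Levels between genes were compared per length, in the authors' TPM, a measure scaled for transcript length and library total. These TPM were not the counts over a fixed length of each gene. CENPE had 4.07 and 5.54 CPM in knockdown libraries 1 and 3, but 2.48 and 1.36 TPM. UBE2C was the most abundant of the 50, at 332 ± 12.5 TPM after knockdown and 401 ± 17.6 TPM in controls (SD, n = 3 each), and CENPE the least, at 2 ± 0.578 TPM after knockdown and 1.86 ± 0.36 TPM in controls. MYBL2 had 249 ± 22.8 TPM after knockdown and 268 ± 21.2 TPM in controls, and CDC20 had 224 ± 25.6 TPM after knockdown and 260 ± 12.9 TPM in controls. MYBL2 and CDC20 did not differ from each other in TPM beyond the spread of the libraries. On the log2(TPM + 1) scale, 19 of the 50 genes had a log2 fold change below 0. The median of the 50 on that scale was 0.05, against 0.21 over all tested genes. The share of all tested genes below 0 was not computed there. CCNB1 averaged 162 TPM in both groups (± 29 after knockdown, ± 6.18 in controls).

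The other genes of division were listed by complex. Over 106 genes of the anaphase-promoting complex, condensin, cohesin, kinetochore, spindle and CDK1 control, 0 rose and 0 fell by edgeR, 66 had a log2 fold change below 0, and the median was -0.09, where 44.1% of all tested genes were below 0. The groups did not overlap for 27 of them on the lower side (25.5%, against 10.8% of all tested genes) and 5 on the higher side (4.72%, against 13.4%). The anaphase-promoting complex had 15 of 17 genes below 0 (median -0.19), and its subunit ANAPC5 averaged 90.4 ± 4.06 CPM after knockdown and 119 ± 1.44 CPM in controls (log2 fold change -0.39, edgeR adjusted p = 0.15). Condensin, which compacts mitotic chromosomes, had 6 of 8 genes below 0 (median -0.13), with NCAPH at 64.7 ± 3.44 CPM after knockdown and 80.2 ± 2.86 CPM in controls. Cohesin, which joins sister chromatids, had 3 of 13 genes below 0 and 10 above (median 0.14, highest 0.39). SMC1A, with the smallest p of that list, was 1 of the 3, at -0.27.

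ZWINT, a kinetochore protein that docks the checkpoint complex, had the lowest edgeR adjusted p of the 106, 0.0612. It had 41.1, 39.2 and 36.7 CPM after knockdown, against 57.1, 65 and 58 CPM in controls, and the log2 fold change was -0.62 ± 0.12 (SE). Its list of further kinetochore genes had 18 of 29 below 0 (median -0.06). In the list of further spindle and cytokinesis genes 15 of 21 lay below 0 (median -0.15), with the chromokinesin KIF22 at -0.37. In the list of CDK1 control 9 of 18 did (median -0.01), and the values ran from -0.42 to 0.54. The CDK-binding subunit CKS1B, with the smallest p of that list, stood at -0.42. The groups of that list did not overlap for 3 genes on the lower side (16.7%) and 3 on the higher side (16.7%). Over all tested genes these shares were 10.8% and 13.4%.

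Genes past the test were found in the lists of CDK inhibitors with the GADD45 family and of G1/S and replication. These lists were chosen with earlier results of these data known. Of all tested genes, 1.1% rose and 0.0735% fell by edgeR. GADD45G and GADD45A, stress-induced genes whose proteins can inhibit the CDK1 and cyclin B1 complex, rose. GADD45G had 19.4, 9.89 and 16.1 CPM after knockdown, against 1.02, 2.17 and 1.57 CPM in controls, a log2 fold change of 3.26 ± 0.35 (SE, edgeR adjusted p = 0.00526). GADD45A had 115, 85.7 and 110 CPM after knockdown, against 40.1, 46.7 and 40 CPM in controls, or 1.29 ± 0.15 (SE, edgeR adjusted p = 0.00839). CDKN1C, the CDK inhibitor p57, rose by 1.31 (edgeR adjusted p = 0.0367), and no other gene of the 10 in that list passed. Among 47 genes of G1/S and replication, 40 lay below 0, the median was -0.24, and TYMS, thymidylate synthase, was the 1 that fell, with 29.7, 26.3 and 29.3 CPM after knockdown, against 45.3, 50.2 and 46.9 CPM in controls (-0.74, edgeR adjusted p = 0.0367). For 23 of these 47 genes (48.9%) every knockdown library lay below every control library and for 2 above, beside 14 and 0 of the 50 mitotic genes and 10.8% and 13.4% of all tested genes. The difference between the lists was not tested.

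**Figure D5:**
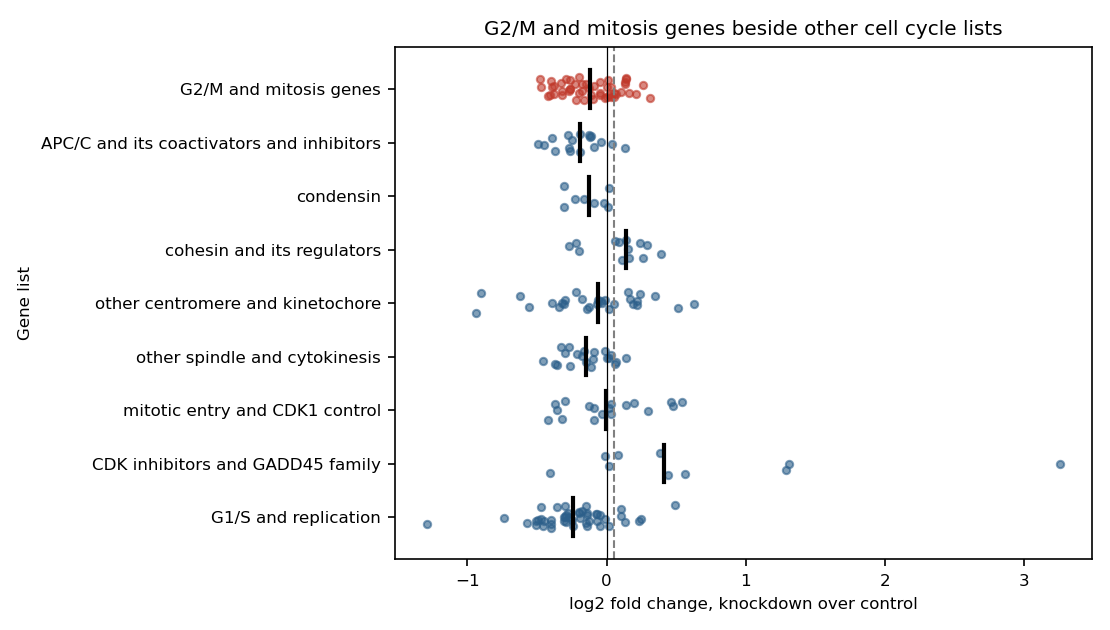
Log2 fold change of each gene, knockdown over control, in the 50 G2/M and mitosis genes (top row, red) and in 8 other cell cycle lists, with a black bar at each list's median and a dashed line at the median over all tested genes, 0.05. The medians run from -0.24 for the G1/S and replication genes to 0.41 for the CDK inhibitors and GADD45 family.

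The libraries held 32342017 to 40066223 assigned counts after knockdown and 34623672 to 39615278 in controls. The 6 epithelial markers were abundant in every library, with summed TPM of 12127 to 15692 after knockdown and 13196 to 13924 in controls, and none rose or fell. Under 1 TPM in every library were 3 of 6 fibroblast markers (LUM at 0 in all), 4 of 6 immune markers and 3 of 5 endothelial markers, and the fibroblast marker PDGFRB rose (2.92, edgeR adjusted p = 0.00502). Summed levels of the fibroblast list were 15.5 to 26.3 TPM after knockdown and 10.5 to 13.9 TPM in controls, of the immune list 65.5 to 81.3 TPM after knockdown and 53.8 to 67 TPM in controls, and of the endothelial list 17 to 24.4 TPM after knockdown and 12.1 to 18.6 TPM in controls. Their part in the results was not tested. Another gene of the table overlaps 29 of the 50 genes, among them KIF2C (AL592166.1), PRC1 (PRC1-AS1), FOXM1 (RHNO1) and KIF20A (CDC23), and no source states whether reads were counted by strand, so those values are uncertain to that extent. Like-named copies held at most 0.36% of a gene's counts (KIF4B beside KIF4A).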

How the data were processed

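RNA was sequenced on an Illumina instrument and reads mapped to genes were counted, per the labels' protocols. The deposited table gives, per gene and library, raw counts, TPM and FPKM made by the authors; counts were tested, TPM was used for levels, and FPKM was not used. No source used here names an aligner or counter. The submitters' processing notes name hg19, but the table's positions were identical to GENCODE 29 on GRCh38 for all 50 members and 96.8% of shared genes, so coordinates are given in that build.

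The comparison used edgeR 4.0.16 in R 4.3.3 (TMM, filterByExpr with a minimum count of 10, quasi-likelihood test, Benjamini-Hochberg over 19040 genes, threshold 0.05), with the common biological coefficient of variation at 22.9%. limma 3.58.1 and DESeq2 1.42.0 served among 17 alternatives. Standard errors were computed from the F statistics, and the model was tested on simulated data. Same-numbered libraries did not deviate together (correlations 0.01, -0.08 and -0.03), so no pairing was used. No 2 libraries of 1 group agreed within sampling noise. The members and lists were chosen with earlier results of these data known. Genes given with values in every library were the 2 with the smallest p and the most abundant in each role. In the other lists, the genes named were up to 4 past the test, or the 1 with the smallest p where none passed. Some of these have values in every library, and others only group means or the log2 fold change. Other genes with values in every library are named as chosen after those values were seen.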

Additional observations from a re-analysis of the deposited data

How the results depend on the processing

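UBE2C, CDC20, KIF2C and MYBL2 kept a log2 fold change below 0 under all 17 alternatives. They had the smallest edgeR p of the 50 genes in these same libraries, so their steady sign is no separate evidence. Of the 50 genes, those past the test numbered 1 with DESeq2 and 3 with GC and length trends removed (added after the data were seen), and 0 otherwise. Their median log2 fold change was 0.01 with library sizes alone and 0.05 on log2(TPM + 1), where the median over all genes was 0.17 and 0.21, and leaving out 1 library gave -0.24 (without knockdown library 2) to -0.09. Calls over all genes, 223 as reported, numbered 143 with cyclic loess, 147 with no filter, 82 with 10 counts in every library, 701 with DESeq2, 397 on TPM, 651 with trends removed and 64 to 114 with 1 library left out. With the replicate number as a block they numbered 34, with 0 of the 50 genes; the numbers did not pair the libraries. The 14 genes without overlap became 8 with library sizes alone and 3 in TPM. On log2(TPM + 1), 14 of the 50 log2 fold changes turned from below to above 0. Among the 19 genes given in full, these were TPX2 (0.06) and FOXM1 (0.02), and TOP2A reversed with trends removed (-0.06). With 1 library left out, TOP2A ranged from -0.20 to 0.20 and MKI67 from -0.26 to 0.39, the lowest without knockdown library 2 and without control library 2; the cause was not tested. The spread between 3 libraries a group limits what is resolved: KIF2C, with the smallest standard error, had 0.10 on the log2 scale.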
